A study of Mus musculus and Homo sapiens with 10 samples.

Results

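Human embryonic stem (ES) cells of the line H1 were examined here for 10 genes of the NODAL signalling pathway. The genes were named in advance of this account with their values in these same libraries known, so their values are given as a description and carry no test. They were NODAL, LEFTY1, LEFTY2, TDGF1, GDF3, FOXH1, ACVR1B, ACVR2B, SMAD2 and SMAD7, found by symbol among 22060 genes of the deposited human table, with the highest RefSeq entry taken for each gene. All 10 had a mean of at least 0.5 RPKM (reads per kilobase of the entry, scaled to a library total), as did 13043 genes in all.

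The study profiled how L1 retrotransposons are controlled in mouse and human ES cells, in 10 samples. The human arm had 1 RNA library per group. The DNMT knockdown group was H1 cells transduced with a lentivirus carrying hairpins against the DNA methyltransferases (DNMTs), and the control group was H1 cells transduced with a lentivirus carrying an empty hairpin vector. Both were at passage 69 and both gave cytoplasmic poly(A) RNA. The sources used here give neither the number of hairpins nor the time since transduction. With 1 library per group there is no replicate check, so each interval below covers counting error only and compares the libraries, not the conditions.

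NODAL is a secreted ligand of the TGF-beta family. It binds activin receptors of type II (ACVR2A, ACVR2B) and type I (ACVR1B, also called ALK4) together with the cell-surface co-receptor TDGF1, also called Cripto, and the receptors phosphorylate SMAD2 and SMAD3. These join SMAD4 and, with partners such as the forkhead factor FOXH1, switch on target genes that include NODAL itself and its own inhibitors LEFTY1 and LEFTY2. In human ES cells, activin and NODAL signalling is known to sustain the pluripotent state and NANOG expression, and stronger signalling goes with endoderm and mesoderm formation.

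The DNMT knockdown library held 92478094 reads and the control library 100921087. The sample titles name the hairpin targets only as DNMTs, taken here as DNMT1, DNMT3A and DNMT3B. Each was lower in the knockdown library, with DNMT1 at 28.4% of control, DNMT3B at 41.9% and DNMT3A at 67.9%. Pluripotency markers were present in both libraries. POU5F1, the OCT4 gene, which has near-identical pseudogenes, was at 893 RPKM in the knockdown and 921 RPKM in the control library, and SOX2 was at 66.4 RPKM in the knockdown and 107 RPKM in the control library. Over all 13043 genes the median log2 ratio was 0.01.

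The ligand NODAL and the secreted inhibitors LEFTY1 and LEFTY2 were about an order of magnitude higher in the DNMT knockdown library than in the control library. The co-receptor TDGF1, the most abundant of the 10 in both libraries, was at 34.4% of its control level. The receptors ACVR1B and ACVR2B, the signal transducer SMAD2 and the partner FOXH1 stayed within 2-fold. In all, 4 genes (NODAL, LEFTY1, LEFTY2, SMAD7) were at least 2-fold higher, where 4.37% of all genes were, and 1 (TDGF1) was at least 2-fold lower, where 4.97% were. Calls used the log2 ratio of knockdown over control with a pseudocount of 0.5 RPKM, past 1 in either direction. The median log2 ratio of the 10 was 0.50. Because the genes were chosen on these values, nothing further is read from these counts.

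**Figure D1:**
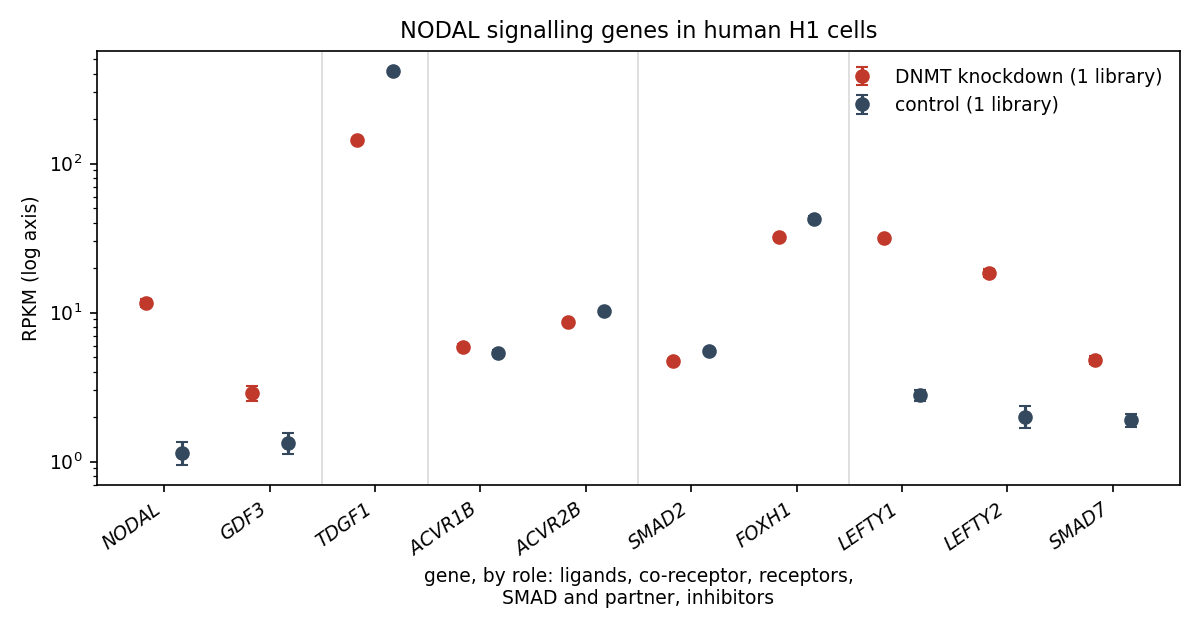
Level of each of the 10 genes in RPKM on a log axis, in the DNMT knockdown library (red, left) and the control library (dark, right), 1 library each. Bars are 95% Poisson counting intervals. NODAL, LEFTY1 and LEFTY2 lie well above control in the knockdown library, TDGF1 lies below it, and ACVR1B, ACVR2B and SMAD2 nearly coincide.

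Of the ligands, NODAL was at 11.6 RPKM in the DNMT knockdown library (95% Poisson interval 10.9 to 12.3) and at 1.14 RPKM in the control library (0.945 to 1.36). The ratio was 10.1, with a 95% exact counting interval of 8.39 to 12.3, from 1115 and 120 reads. NODAL was thus the least abundant of the 10 genes in the control library and the fifth most abundant in the knockdown library. On the log2 scale with the pseudocount its ratio was 2.88, and 66 of the 13043 genes had a higher one. GDF3, a ligand of the same family that can also use TDGF1, moved less. It was at 2.87 RPKM in the knockdown and 1.33 RPKM in the control library, a ratio of 2.16 (1.79 to 2.63). Its log2 ratio of 0.88 stayed under the 2-fold line because of the pseudocount, and the interval of its plain ratio spans 2-fold. It was past 1.5-fold, as 13.0% of all genes were in this direction. In the control library the levels of NODAL and GDF3 did not differ beyond counting error, while in the knockdown library NODAL was 4.03 times as abundant as GDF3 per length.

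TDGF1, the GPI-anchored co-receptor, had the highest level of the set. It was at 144 RPKM in the DNMT knockdown library (142 to 146) and at 418 RPKM in the control library (415 to 421), which leaves 34.4% of the control level (33.9 to 34.9%). Its log2 ratio was -1.54, and 194 of the 13043 genes had a lower one. The table also lists TDGF1P3, a near-identical copy of TDGF1, at 32.9 RPKM in the knockdown and 94.4 RPKM in the control library. TDGF1P3 stood at 22.9% of TDGF1 in the knockdown and 22.6% in the control library, so reads of the gene and its copy may be split between both entries and the level of TDGF1 is uncertain. The ratio of the copy, 34.9% of control (34.0 to 35.7%), overlaps that of TDGF1. TDGF1 made up 54.4% of the summed RPKM of the 10 genes in the knockdown and 85.2% in the control library. Per length, TDGF1 was 12.4 times as abundant as NODAL in the knockdown library and 367 times in the control library.

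The receptors differed little. ACVR1B, the type I receptor, was at 5.92 RPKM in the DNMT knockdown and 5.38 RPKM in the control library, a ratio of 1.10 (1.04 to 1.16). ACVR2B, a type II receptor, was at 8.70 RPKM in the knockdown and 10.2 RPKM in the control library, or 85.2% of control (82.9 to 87.6%). Counting error is small at these depths, so these differences exceed it, but how far 2 libraries of the same condition would differ is not known here. An antisense transcript, ACVR2B-AS1, was listed at 1.00 RPKM in the knockdown and 0.657 RPKM in the control library. The sources used here do not say whether counting kept strand, so reads of ACVR2B and its antisense partner may not be told apart.

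SMAD2, which carries the signal into the nucleus, was at 4.76 RPKM in the DNMT knockdown and 5.50 RPKM in the control library, or 86.5% of control (83.2 to 89.9%). FOXH1, the DNA-binding partner of SMAD2, was at 32.0 RPKM in the knockdown (30.6 to 33.3) and 42.6 RPKM in the control library (41.1 to 44.1), or 75.0% of control (71.0 to 79.2%). FOXH1 was the second most abundant of the 10 genes in both libraries. Of the 13043 genes, 20.4% had a lower log2 ratio than FOXH1 and 33.5% a lower one than SMAD2.

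The inhibitors were all higher in the DNMT knockdown library. LEFTY1, a secreted antagonist that keeps NODAL from its receptors, was at 31.4 RPKM in the knockdown (30.5 to 32.3) and 2.78 RPKM in the control library (2.53 to 3.04). The ratio of 11.3 (10.3 to 12.5) was the highest of the set, and 44 of the 13043 genes had a higher log2 ratio. LEFTY2, its close paralog, was at 18.4 RPKM in the knockdown (17.4 to 19.5) and 2.00 RPKM in the control library (1.68 to 2.36), a ratio of 9.23 (7.74 to 11.1). The intervals of both ratios overlap for this LEFTY2 entry, whose reads may be understated. The other LEFTY2 entry, with 3684 and 434 reads, had a ratio of 9.26 (8.38 to 10.26). That interval ends just under the one of LEFTY1, which starts at 10.27, so whether the ratios differ beyond counting error depends on the entry. Because LEFTY1 and LEFTY2 are near-identical over long stretches, reads may be split between them, and their sum is the safer quantity. The sum was 49.8 RPKM in the knockdown and 4.78 RPKM in the control library, 10.4 times as high. LEFTY1 and LEFTY2 together were 4.31 times as abundant as NODAL in the knockdown library and 4.19 times in the control library, so ligand and antagonists were higher in nearly the same proportion. SMAD7, an intracellular inhibitor that blocks the activated type I receptor, was at 4.84 RPKM in the knockdown (4.55 to 5.14) and 1.89 RPKM in the control library (1.72 to 2.08), a ratio of 2.56 (2.28 to 2.87). SMAD7 reached the level of SMAD2 in the knockdown library, at 1.02 times SMAD2, against 0.344 times in the control library.

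**Figure D2:**
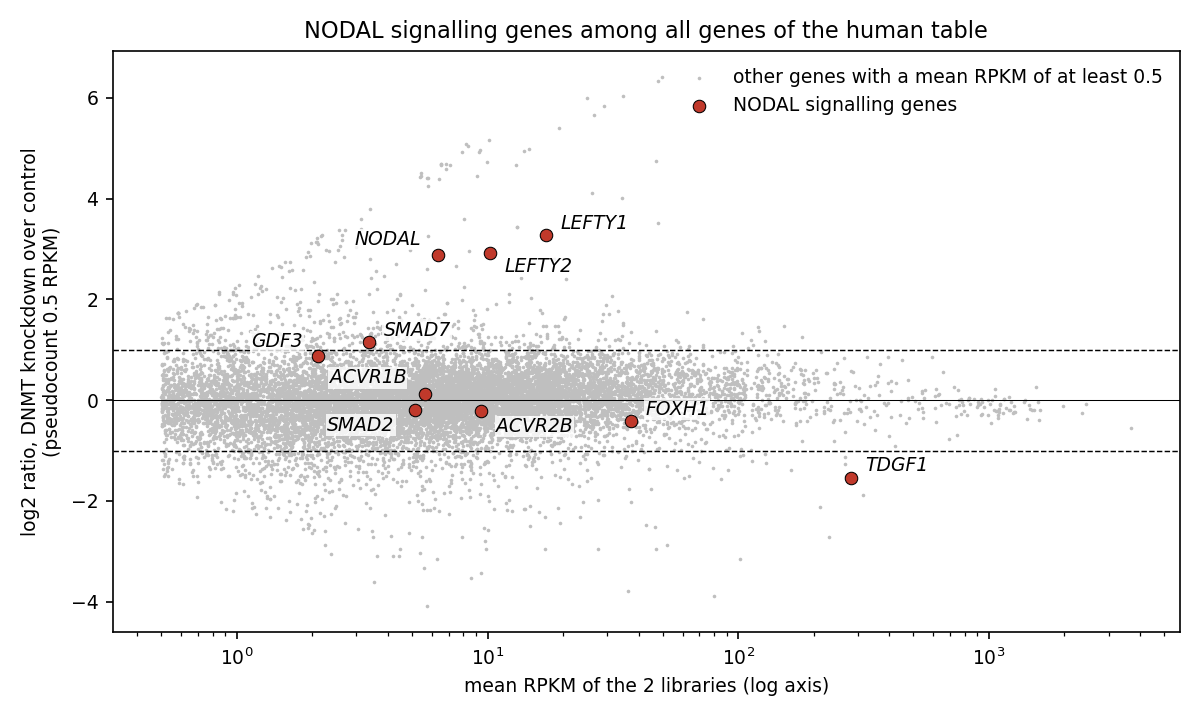
Log2 ratio of DNMT knockdown over control (pseudocount 0.5 RPKM) against the mean RPKM of the 2 libraries on a log axis. Grey points are the other genes that average 0.5 RPKM or more, red points are the 10 NODAL signalling genes, and dashed lines mark 2-fold. LEFTY1, LEFTY2 and NODAL sit near 3 on the log2 scale, TDGF1 sits at -1.54 among highly expressed genes, and 5 genes lie within 2-fold.

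The order of the levels therefore differed between the libraries. In the DNMT knockdown library it was TDGF1, FOXH1, LEFTY1, LEFTY2, NODAL, ACVR2B, ACVR1B, SMAD7, SMAD2 and GDF3, with FOXH1 and LEFTY1, and SMAD7 and SMAD2, not separated by their counting intervals. In the control library it was TDGF1, FOXH1, ACVR2B, SMAD2, ACVR1B, LEFTY1, LEFTY2, SMAD7, GDF3 and NODAL. There the intervals overlapped for SMAD2 and ACVR1B, for LEFTY2 and SMAD7, and for GDF3 and NODAL. The 5 genes at the low end of the control order, each under 3 RPKM there, were those with the highest ratios. Shares over all genes were taken by the mean of both libraries, not by the control level. Among genes with a mean of 0.5 to 5 RPKM, 5.77% were at least 2-fold higher in the knockdown library. The share was 3.45% of genes from 5 to 20 RPKM and 2.73% of those above. By this mean, GDF3 and SMAD7 fall in the lowest band, and NODAL, LEFTY1 and LEFTY2 in the band from 5 to 20 RPKM. Log2 ratios of at least 2.5, as NODAL, LEFTY1 and LEFTY2 had, were seen in 85 genes (0.652%).

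The 10 genes had 18 RefSeq entries in the table, and 5 of them had more than 1 entry. Entries of a gene share exons and reads, so they are not independent. The 3 SMAD7 entries had log2 ratios of 1.10 to 1.16, with 3.92 to 4.84 RPKM in the DNMT knockdown and 1.56 to 1.89 RPKM in the control library. The 3 SMAD2 entries had log2 ratios of -0.19 to -0.18, and the 3 ACVR1B entries 0.12 to 0.13. Both LEFTY2 entries were at 2.92, and the TDGF1 entries at -1.54 and -1.53. No gene's entries differed by more than 0.06 on the log2 scale, so the choice of entry did not change any direction.

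The rest of the pathway was described from lists of 84 other genes, of which 83 were in the table and 53 had a mean of at least 0.5 RPKM. Of these 53, 8 were at least 2-fold lower and 5 at least 2-fold higher in the DNMT knockdown library, where 4.97% of all genes were lower and 4.37% higher by this rule. Their median log2 ratio was -0.07, against 0.01 over all genes. The counts and the median include FOXA2, FGF8 and LHX1, which reached a mean of 0.5 RPKM through 1 library alone and so had to differ. GDF1 was not analysed here. Of the 4 related ligands with enough reads, INHBE, which encodes the inhibin beta E chain, was at 6.86 RPKM in the knockdown and 2.57 RPKM in the control library. GDF11, another ligand that signals through SMAD2 and SMAD3, was at 4.84 RPKM in the knockdown and 5.48 RPKM in the control library, and GDF15 at 1.99 RPKM in the knockdown and 3.11 RPKM in the control library. TGFB1, the founding ligand of the family, was at 1.31 RPKM in the knockdown and 0.827 RPKM in the control library. These 4 had a median log2 ratio of 0.14. The activin A chain gene INHBA was below the level needed, at 0.214 RPKM in the knockdown and 0.0137 RPKM in the control library. Among 5 other receptors and co-receptors, 0 passed 2-fold in either direction, and their median log2 ratio was 0.16. TGFBR1, the type I receptor for TGF-beta, was at 8.91 RPKM in the knockdown and 8.07 RPKM in the control library. TGFBR2, the type II receptor for TGF-beta, was at 1.65 RPKM in the knockdown and 0.875 RPKM in the control library, and the type II receptor ACVR2A at 1.43 RPKM in the knockdown and 2.24 RPKM in the control library. CFC1, another Cripto-family gene, was at 0 RPKM in the knockdown library, where no read was found, and at 0.0393 RPKM in the control library. CFC1B, also in the list, was at 0 RPKM in the knockdown and 0.0251 RPKM in the control library.

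Of 15 SMADs and nuclear partners, 14 stayed within 2-fold, and the median log2 ratio was -0.07. SMAD3 was at 3.22 RPKM in the knockdown and 3.23 RPKM in the control library, and the common SMAD4 at 7.79 RPKM in the knockdown and 8.38 RPKM in the control library. The exception was USP9X, a deubiquitinase known to act on SMAD4, at 20.1 RPKM in the knockdown and 69.4 RPKM in the control library, or 28.9% of control (28.5 to 29.3%). The most abundant of the list was TRIM28, which encodes KAP1, at 233 RPKM in the knockdown and 182 RPKM in the control library, and DRAP1, a corepressor known in mouse to restrain FOXH1, was at 39.2 RPKM in the knockdown and 42.2 RPKM in the control library.

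The genes listed as extracellular inhibitors and processing factors of the pathway did not move together, and not all of them are inhibitors. CER1, or Cerberus, which binds NODAL, was at 3.33 RPKM in the DNMT knockdown and 0.600 RPKM in the control library, a ratio of 5.55 (4.31 to 7.23). The activin-binding follistatin FST was at 2.09 RPKM in the knockdown and 5.92 RPKM in the control library, or 35.3% of control (30.2 to 41.3%). Its relative FSTL3 was at 0.625 RPKM in the knockdown and 1.97 RPKM in the control library, or 31.7% (26.2 to 38.2%). So 1 gene was higher, 2 were lower and 9 of the 12 in this list stayed within 2-fold, with a median log2 ratio of -0.18. Over all genes 4.37% were higher and 4.97% lower. Those 9 included its most abundant members FSTL1, a secreted follistatin-like protein, at 82.1 RPKM in the knockdown and 125 RPKM in the control library, the glypican GPC4 at 81.7 RPKM in the knockdown and 107 RPKM in the control library, and NOMO1, part of a complex that modulates NODAL signalling in fish, at 47.0 RPKM in the knockdown and 49.2 RPKM in the control library.

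**Figure D3:**
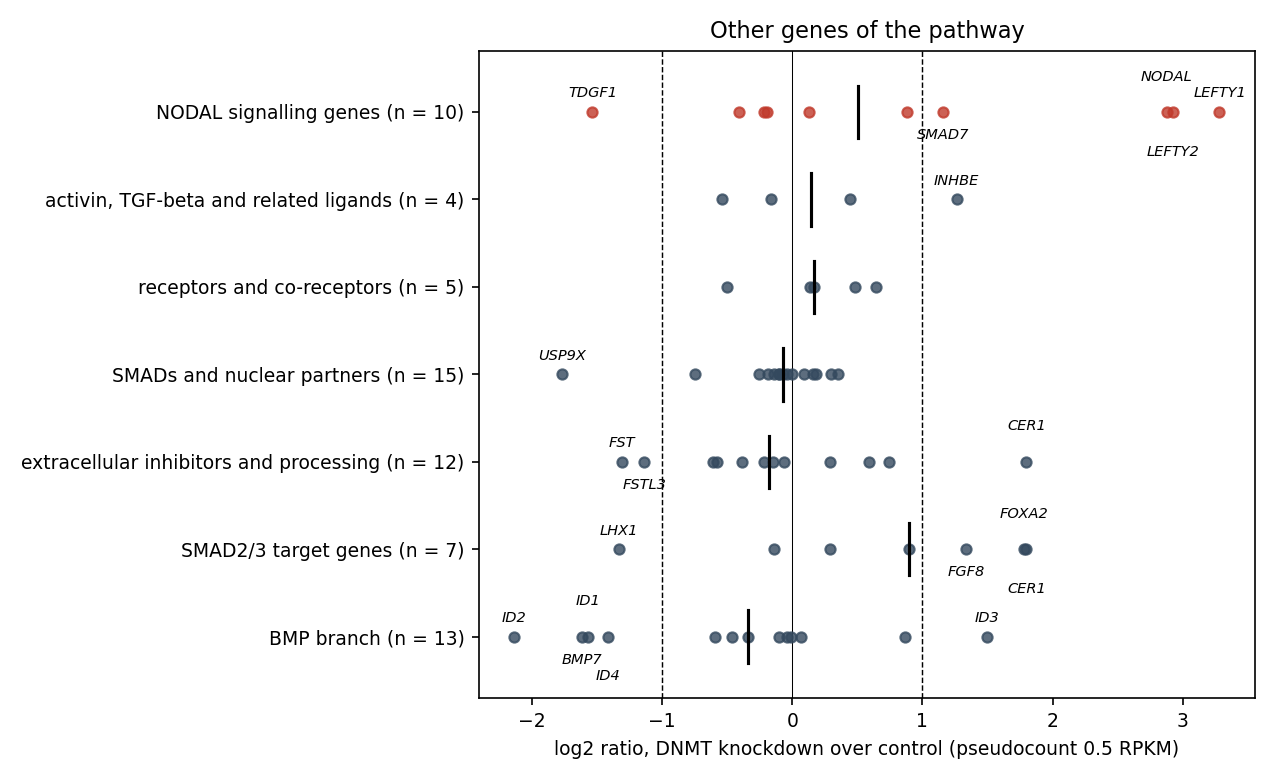
Log2 ratio of DNMT knockdown over control (pseudocount 0.5 RPKM) for the 10 NODAL signalling genes (red) and for each list of other pathway genes that average 0.5 RPKM or more (dark). Each point is 1 gene, bars are medians, dashed lines mark 2-fold and genes past it are named. CER1 is in 2 lists. The list of SMADs and nuclear partners and the list of receptors and co-receptors lie within 2-fold apart from USP9X at -1.77.

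Known targets of SMAD2 and SMAD3 include genes active in pluripotent cells and genes of early endoderm and mesoderm. NANOG, a pluripotency factor, was at 32.6 RPKM in the DNMT knockdown and 17.3 RPKM in the control library, a ratio of 1.89 (1.81 to 1.96). Of the 17 genes in the list, 7 reached a mean of 0.5 RPKM, with 3 past 2-fold higher and 1 lower, where 4.37% and 4.97% of all genes were, and a median log2 ratio of 0.90. FOXA2 and FGF8 reached it through the knockdown library alone, and LHX1 through the control library alone, so 3 of these 4 had to differ and their count supports nothing. The median includes the same 3 genes, so nothing is read from it either. FOXA2, an endoderm factor, had 279 reads (1.24 RPKM) in the knockdown and 2 reads in the control library, a ratio of 152 (41.8 to 1263). FGF8, a growth factor of the gastrula, was at 1.17 RPKM in the knockdown and 0.162 RPKM in the control library, and LHX1, a homeobox factor of the same stage, at 0.0851 RPKM in the knockdown and 0.973 RPKM in the control library. The abundant SKIL, a feedback repressor of SMAD activity, was at 15.9 RPKM in the knockdown and 17.6 RPKM in the control library, and PMEPA1, another feedback inhibitor, at 2.76 RPKM in the knockdown and 2.16 RPKM in the control library. The defining primitive streak genes T, EOMES, GSC and MIXL1 were all under 0.3 RPKM in both libraries.

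The BMP branch, which signals through SMAD1 and SMAD5 and competes with the NODAL branch for SMAD4, had 13 genes with enough reads, of which 4 were past 2-fold lower, as 4.97% of all genes were, and 1 higher, as 4.37% were. The median log2 ratio of the 13 was -0.34. ID2, an inhibitor of helix-loop-helix factors and a classic BMP target, was at 6.74 RPKM in the DNMT knockdown and 31.3 RPKM in the control library, or 21.5% of control (19.4 to 23.9%). ID1 was at 42.8 RPKM in the knockdown and 128 RPKM in the control library and ID4 at 1.32 RPKM in the knockdown and 4.33 RPKM in the control library. ID3, of the same family, went the other way, at 51.5 RPKM in the knockdown and 18.0 RPKM in the control library, a ratio of 2.87 (2.73 to 3.01). The ligand BMP7 was at 0.593 RPKM in the knockdown and 2.85 RPKM in the control library, while BMP4 was at 1.64 RPKM in the knockdown and 1.80 RPKM in the control library.

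Markers of other cell types were read for the same libraries, and in bulk RNA a change in the number of cells of a type and a change in RNA per cell cannot be told apart. Of 12 markers of primitive streak and endoderm, 7 in the DNMT knockdown and 8 in the control library were under 0.1 RPKM, and their summed level was 5.64 RPKM in the knockdown and 1.67 RPKM in the control library. CER1 and FOXA2, given above, were the only ones with a mean of at least 0.5 RPKM, and SOX17, GATA4 and GATA6 were each under 0.1 RPKM in both libraries. The part of such cells in the values of NODAL, LEFTY1 and LEFTY2 was not tested. Of 9 trophectoderm markers, KRT7, a keratin, was the only one above that level, at 2.84 RPKM in the knockdown and 11.4 RPKM in the control library. The list summed to 3.10 RPKM in the knockdown and 11.4 RPKM in the control library, nearly all from KRT7. The others did not follow it. TP63 had 49 reads in the knockdown and 2 reads in the control library. CDX2, GATA3, TFAP2A and ELF5 were also higher in the knockdown library, on few reads. GATA2 was lower, and CGA and HAND1 were at 0 RPKM in both. Neuroectoderm markers summed to 62.0 RPKM in the knockdown and 54.7 RPKM in the control library over 11 genes, nearly all from NES and OTX2, which pluripotent cells also express, while PAX6 and SOX1 were under 0.2 RPKM in both. OTX2 was at 11.3 RPKM in the knockdown and 21.2 RPKM in the control library, and NES at 50.0 RPKM in the knockdown and 33.1 RPKM in the control library. Fibroblast markers summed to 156 RPKM in the knockdown and 97.4 RPKM in the control library over 10 genes. THY1, a surface protein also present on human ES cells, was at 109 RPKM in the knockdown and 35.2 RPKM in the control library. Of the 4 markers with a mean of at least 0.5 RPKM, THY1 was the only one past 2-fold, and the other 3 were lower in the knockdown library. COL1A2 was at 26.1 RPKM in the knockdown and 36.7 RPKM in the control library, and COL1A1 at 18.2 RPKM in the knockdown and 22.8 RPKM in the control library. PDGFRB, a growth factor receptor, was at 1.39 RPKM in the knockdown and 2.35 RPKM in the control library. Among the markers below that level, POSTN was at 0.474 RPKM in the knockdown and 0.175 RPKM in the control library, and TWIST1 at 0.214 RPKM in the knockdown and 0.0356 RPKM in the control library. COL3A1 had 47 reads in the knockdown and 4 reads in the control library, and COL3A1, LUM and DCN were under 0.1 RPKM in both. Of 12 pluripotency markers with enough reads, 11 stayed within 2-fold, and the other was DNMT3B, itself taken here as a hairpin target. LIN28A, an RNA-binding protein, was at 209 RPKM in the knockdown and 274 RPKM in the control library, and DPPA4, a chromatin factor of pluripotent cells, at 190 RPKM in the knockdown and 218 RPKM in the control library.

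The mouse libraries of the series, from ES3 cells (strain C57BL/6) at day 4 after transduction with a hairpin against the zinc finger gene Gm6871 or with an empty vector, give the same genes in another species, with 2 libraries per group. All 10 counterparts were found. They are described for their levels and their spread, and no test of the Gm6871 knockdown was run on them. Tdgf1 was again the most abundant, at 324 and 609 RPKM in the knockdown libraries and 492 and 521 RPKM in the control libraries. Unlike in the human control library, Nodal was among the higher genes, at 41.1 and 53.6 RPKM in the knockdown and 37.6 and 49.2 RPKM in the control libraries. In the human DNMT knockdown library NODAL ranked 5 of the 10. Gdf3 was also among the higher genes, at 43.1 and 54.2 RPKM in the knockdown and 42.1 and 77.5 RPKM in the controls, unlike GDF3 in either human library. Levels in human and mouse libraries were scaled separately, so only the order within a species is set side by side.

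The Lefty genes were the most variable of the mouse set. Lefty1 was at 3.66 and 18.5 RPKM in the Gm6871 knockdown libraries and at 7.67 and 1.14 RPKM in the control libraries, so libraries of the same group differed by 5.06 times and 6.70 times. Lefty2 was at 3.89 and 7.96 RPKM in the knockdown and 5.42 and 0.858 RPKM in the controls, a 6.32-fold difference between the controls. The groups overlapped for both. For Nodal, the highest library was only 1.42 times the lowest, and for Foxh1, Smad2 and Acvr2b 1.32, 1.31 and 1.48 times. Acvr1b, Tdgf1 and Gdf3 spread more, at 2.22, 1.88 and 1.84 times. For Tdgf1 these extremes were the 2 knockdown libraries, and for Gdf3 the 2 controls. The size of a Lefty difference that arises between libraries of 1 condition is therefore large in these mouse data, and it was not measured in the human cells. Smad7 was the only one of the 10 whose groups did not overlap, at 20.5 and 20.3 RPKM in the knockdown and 22.2 and 29.6 RPKM in the controls. Of 11100 mouse genes, 14.3% were lower and 13.6% higher in both knockdown libraries in this way, so nothing is read from this count.

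**Figure D4:**
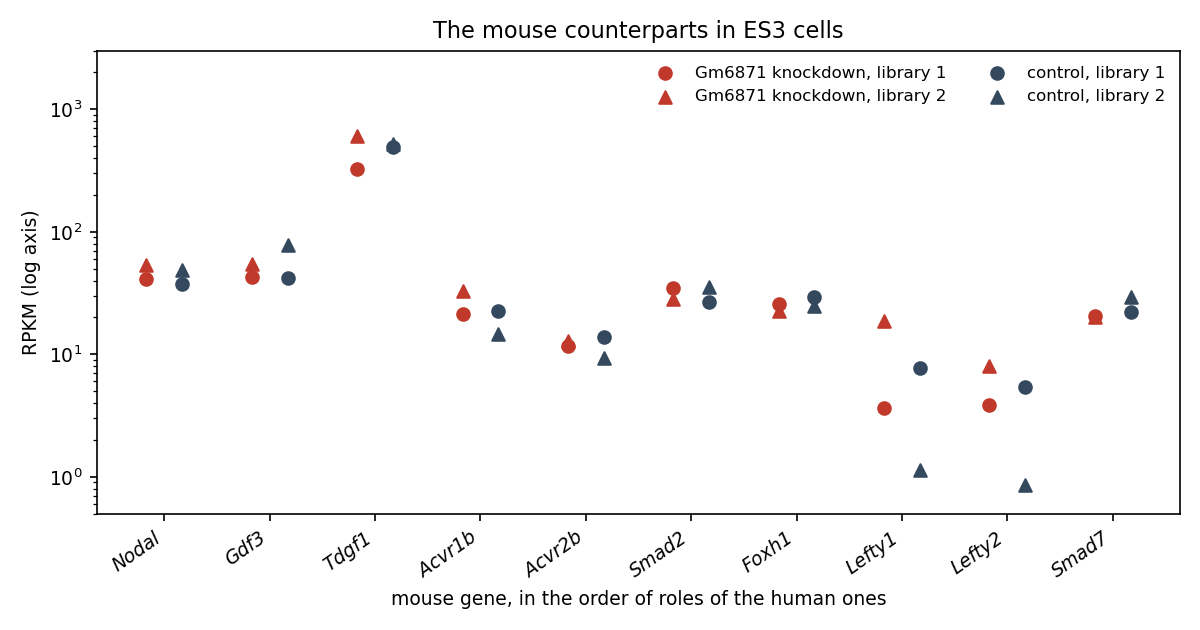
RPKM on a log axis of the mouse counterparts in each of 4 ES3 libraries, with Gm6871 knockdown (red, left) and control (dark, right), circles for library 1 and triangles for library 2 of each group. Lefty1 spreads from 1.14 to 18.5 RPKM and Lefty2 from 0.858 to 7.96 RPKM, while Nodal, Foxh1 and Smad2 stay close together.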

How the data were processed

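The authors deposited RPKM values for each RefSeq entry and each L1 copy, in 1 column per library. The submitters' processing notes name Bowtie 0.12.5, hg19 and mm9. The sources used here give neither the counting method nor the placing of multi-position reads nor the use of strand. The tables have 36865 human and 36083 mouse rows, and 27888 of the mouse rows matched a symbol in a table of the GRCm38.p6 assembly. Mouse columns marked KO and WT were read as the Gm6871 hairpin and empty-vector samples of the same number.

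The members and gene lists were chosen with earlier results of these data known. Whole reads were recovered from the RPKM values. The library totals made all 9840 L1 loci whole within 0.01 reads. The smallest entry length of at least 60 bp that gave whole reads in both libraries was then taken. Where that length is a fraction of the true one, as it may be for NODAL, FOXH1 and the LEFTY2 entry used, reads are understated and intervals too wide. The recovery was tested on simulated data. Intervals are 95% Poisson for levels and Clopper-Pearson for ratios, and cover counting error only, since reads carry no molecular identifiers. Python 3.11.15, scipy 1.17.1 and pandas 2.3.3 were used.

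A gene of 1 pathway list is not reported here and is left out of the list counts. Genes named were the 10 members, the list genes past 2-fold and the 3 most abundant of each list. Other list genes, such as CFC1, SMAD3, SMAD4, INHBA, TGFB1, BMP4, SOX2, PDGFRB, POSTN, TWIST1 and the markers near 0, were picked after their values were seen. The KAP1 and Gm6871 peak lists were not used here.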

Additional observations from a re-analysis of the deposited data

How the results depend on the processing

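The 10 member values were recomputed under 6 settings (pseudocounts of 0.1 and 1, centring on the median of all genes, upper-quartile scaling, the mean over entries, and the entry highest in the control). All 60 values kept their sign, and 6 moved by more than 0.5 times the width of their counting interval. NODAL had a log2 ratio of 3.23 with a pseudocount of 0.1 and 2.55 with a pseudocount of 1. With a pseudocount of 0.1, or with a 1.5-fold limit, GDF3 joined the genes called higher, which made 5. The same 5 calls (4 higher, 1 lower) held when the whole counting interval had to lie past 2-fold. With a mean RPKM of at least 5, pathway genes past 2-fold numbered 3 lower and 1 higher, because fewer genes were left. TMM factors were not run, and upper-quartile scaling was used in their place. No paired analysis was possible because each human group has 1 library and no test was run. Counting depth leaves the ratio of GDF3 unresolved against 2-fold and does not separate NODAL from GDF3 in the control library. In addition, 1 library per group leaves the spread between cultures unmeasured.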

Other observations

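For NODAL, LEFTY1, LEFTY2 and GDF3, the genes whose levels in the 2 human libraries lay nearest, by distance on the log2 scale with a pseudocount of 0.5 RPKM, are given as a description over 2 libraries. Nearest to NODAL were KLHDC7A, at 10.2 RPKM in the DNMT knockdown and 1.27 RPKM in the control library, the histone gene HIST1H2AC at 13.3 RPKM in the knockdown and 1.67 RPKM in the control library, and ACRC at 10.9 RPKM in the knockdown and 0.695 RPKM in the control library. Nearest to LEFTY1 were the linker histone gene HIST1H1C at 32.5 RPKM in the knockdown and 4.21 RPKM in the control library, DHRS2 at 23.3 RPKM in the knockdown and 3.92 RPKM in the control library, and the cancer-testis gene MAGEA2 at 24.5 RPKM in the knockdown and 1.82 RPKM in the control library. LEFTY2 lay nearest to CORO1A, an actin-binding protein, at 15.3 RPKM in the knockdown and 1.54 RPKM in the control library, and to MAGEA2 and its copy MAGEA2B, which have the same values. GDF3 lay nearest to DIEXF, AGMAT and LCMT2, with 2.90, 2.92 and 2.91 RPKM in the knockdown and 1.33, 1.33 and 1.30 RPKM in the control library.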
